A study of Homo sapiens with 6 samples.

Results

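A set of 10 genes whose products are used to recognise breast cancer stem cells was read in mRNA libraries of MDA-MB-453, an established human breast cancer cell line of luminal character that carries androgen receptor. They are the surface antigens CD24, CD44, EPCAM, PROM1 and THY1, the aldehyde dehydrogenases ALDH1A1, ALDH1A3 and ALDH2, and the transcription factors SOX9 and SOX2. The members were taken by name from the deposited table of counts, and all 10 of the 10 names were among its 33451 genes. The cells had been cultured for 5 days with 100 nM 25(OH)D, the circulating form of vitamin D, or with 0.1% alcohol as solvent control, and 3 libraries were made from each group. All libraries came from the same line with no other agent or genetic change, from total RNA with a stranded mRNA kit and paired-end sequencing. The labels do not say whether replicates came from separate cultures, so p-values measure the spread between these libraries, although the methods speak of biological replicates.

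Breast cancer stem cells are defined by what they can do, which is to start a tumour or grow as spheres in suspension, and surface antigens only enrich for them. CD44 with little or no CD24, EPCAM with little CD24, PROM1 (also called CD133), THY1 (CD90) and a high activity of aldehyde dehydrogenase are the combinations most used. The aldehyde dehydrogenases oxidise aldehydes to acids, and the ALDH1A enzymes make retinoic acid from retinal. SOX9 and SOX2 are DNA-binding factors of mammary progenitors and of pluripotent cells. In the study, EpCAM+/CD24- cells were scored by flow cytometry in this line as its stem cell fraction, so the question addressed here is how the mRNA of these markers differed between cells with and without 25(OH)D. In bulk RNA, more cells carrying a marker and more mRNA per cell cannot be told apart.

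Totals were 40928176, 37182562 and 36486009 counts in control, and those of 25(OH)D were 35830902, 38767949 and 33268860. CPM stands here for counts scaled to a common library size with TMM factors, and RPKM for the deposited value, the count divided by gene length and library total. A count of 3, taken as the floor, was worth between 0.072 and 0.0921 CPM. Floors, and the intervals of ratios of summed counts, cover counting error only. Intervals of fold changes come from the edgeR fit described below, so they also include the spread between libraries. In each library between 66.8% and 69.8% of the counts from 1 to 10 were even numbers, against 52.5% to 53.3% of those above 100 and up to 1000. Whether both mates of a read pair were counted is not given in the sources used here, so low counts may stand for fewer fragments than their number.

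CD24 mRNA was higher in 25(OH)D in every library, and it was the only one of the 10 marker genes called by the test across all genes. EPCAM, by far the most abundant of the markers, was about as high in both groups. CD44, PROM1, THY1 and ALDH1A1 lay near the count floor in all libraries. SOX2 lay near it only in 25(OH)D, with 10, 10 and 8 counts in control. All 5 were too low to be tested. ALDH1A3 and ALDH2 were low, higher in 25(OH)D without overlap between the groups, and just short of the threshold, and SOX9 overlapped between the groups. Counts were tested with the quasi-likelihood method of edgeR on the 18183 genes that passed its low-count filter, with Benjamini-Hochberg adjusted p-values. At an adjusted p under 0.05 it called 33.8% of all genes tested, 17.3% higher and 16.5% lower in 25(OH)D. These were 3138 genes higher and 3004 lower, and with library sizes alone, without TMM factors, they were 2689 and 3667. Of the 10 markers, 5 passed the filter, 1 was called higher and 0 were called lower. Without adjustment, at p under 0.05, ALDH1A3 and ALDH2 passed as well and 0 markers passed as lower. The share of all genes at this limit was not computed, so these counts are not read as a result. DESeq2 with its adjusted p called 1 marker higher and 0 lower, beside 3138 genes higher and 2841 lower. ALDH1A3 had entered the test only through its level in 25(OH)D.

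The study drew its limits at a log2 fold change beyond 1 in either direction with p under 0.05 before adjustment, and 6.65% of all genes tested passed them, 4.02% higher and 2.63% lower. Under these limits 2 markers were called higher, CD24 and ALDH1A3, and 0 were called lower. ALDH1A3 would not have passed the low-count filter on its control libraries alone, so it was tested only because of its level in 25(OH)D, and its call is no support for a change of the markers. The groups did not overlap in CPM for 45.7% of all genes tested, 22.8% higher and 22.9% lower in 25(OH)D. This held for 6 of the 10 markers. Of the 5 that were tested, CD24, EPCAM, ALDH1A3 and ALDH2 were higher without overlap, although EPCAM overlapped in RPKM. CD44, which was higher, and SOX2, which was lower, did not pass the filter and are not among the genes behind that share. With 3 libraries in each group, the two-sided exact permutation test of a single gene cannot go below 0.1, and it gave 0.1 for these 6.

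**Figure D1:**
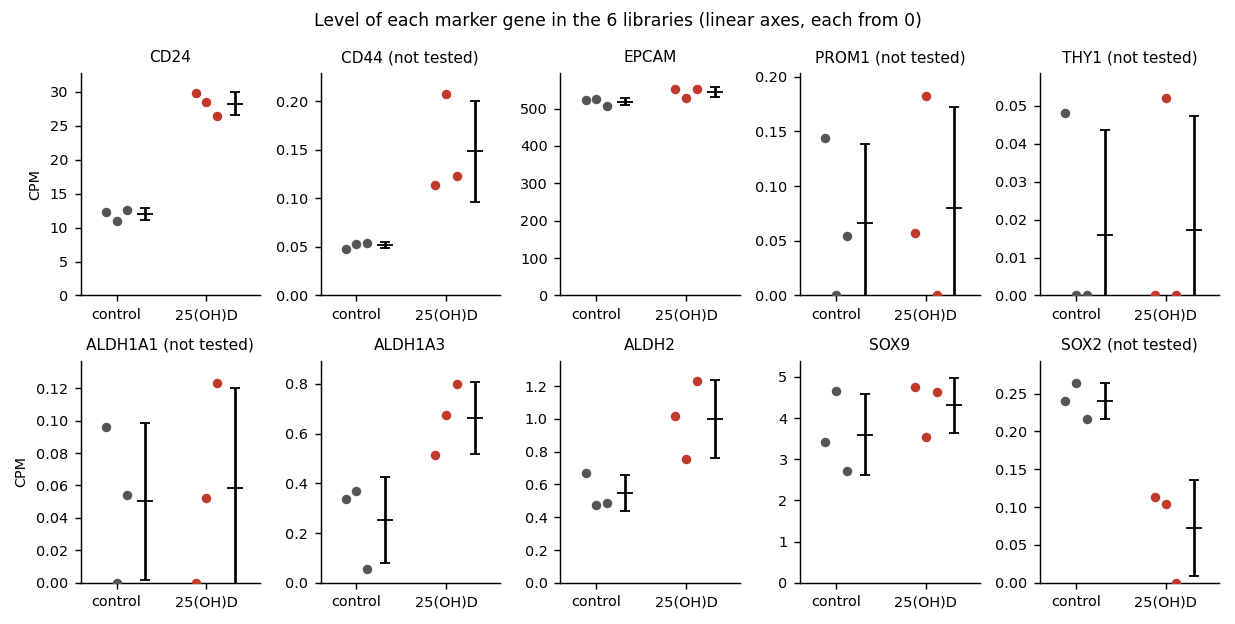
Level of each of the 10 marker genes in CPM on linear axes from 0. Each point is a library, control in grey and 25(OH)D in red, and the bar beside each group is the mean with 1 SD, drawn only above 0. CD24 sits between 11.0 and 12.6 CPM in control and between 26.5 and 29.8 CPM in 25(OH)D, EPCAM sits between 507 and 553 CPM over both groups, and the 5 genes marked as not tested stay at or below 0.264 CPM.

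CD24 encodes a short, heavily glycosylated protein held in the membrane by a lipid anchor, and its absence is part of the stem cell phenotype in breast. The gene lies on the minus strand at chr6:106969831-106975627 in GRCh38. Its coding sequence is shown because it is the transcript that changed and because near-identical pseudogenes could take or lend reads. It was read from the GENCODE 29 transcript between chr6:106971661 and 106974646 on the minus strand and is 243 bases long, and the capitals mark the 2 bases at which the pseudogene CD24P4 of the same length differs.
CD24 coding sequence: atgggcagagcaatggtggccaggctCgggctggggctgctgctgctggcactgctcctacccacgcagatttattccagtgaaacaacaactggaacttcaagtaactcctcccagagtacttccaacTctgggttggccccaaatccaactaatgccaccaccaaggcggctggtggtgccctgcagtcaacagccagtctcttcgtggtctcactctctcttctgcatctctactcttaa
The identity with CD24P4 was 99.2%. Of the 3372 stretches of 100 bases in the GENCODE 29 transcripts of CD24, 17 (0.504%) recurred in another gene. The table of counts listed none of the pseudogenes CD24P1, CD24P2 and CD24P4.

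The 250 bases before the first annotated start of CD24 are shown because the level of its transcript differed between the groups. They are RefSeq sequence of GRCh38.p14 on the minus strand at chr6:106975628-106975877, read 5′ to 3′, and the capitals mark a GC box (GGGCGG), a common promoter element.
CD24 upstream window: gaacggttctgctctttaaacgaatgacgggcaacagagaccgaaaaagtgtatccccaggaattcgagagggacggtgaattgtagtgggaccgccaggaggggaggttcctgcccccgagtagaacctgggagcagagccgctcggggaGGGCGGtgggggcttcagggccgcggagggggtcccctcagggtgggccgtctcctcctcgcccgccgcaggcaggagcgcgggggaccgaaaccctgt
Motifs were searched on both strands. The GC box began at position 152 of the window and occurred in 42.6% of the 35116 gene windows of this length. The half-sites AGGTCA and GGTTCA, letters that vitamin D receptor elements are often built from, had 0 matches in the CD24 window and occurred in 12.1% and 7.16% of all windows. TATAAA and CCAAT also had 0 matches, and occurred in 10.7% and 32% of all windows. These counts say only whether the letters are in this window.

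The control libraries held 513, 416 and 463 counts of CD24, which were 12.3, 11.0 and 12.6 CPM. In the 25(OH)D libraries it had 1049, 1094 and 863 counts, which were 29.8, 28.5 and 26.5 CPM. Every 25(OH)D library was far above every control library. Mean CPM was 12 ± 0.846 (SD, n = 3) in control and 28.3 ± 1.69 (SD, n = 3) in 25(OH)D, and the log2 fold change was 1.24 with an SE of 0.0799 (edgeR, adjusted p = 2.35e-08). This is a 2.36-fold rise with a 95% interval from 2.10 to 2.66. Its absolute log2 fold change was larger than in 95.3% of all genes tested. Leaving out any single library kept the log2 fold change between 1.19 and 1.30, and its edgeR adjusted p between 2.31e-08 and 7.16e-07.

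EPCAM encodes an epithelial adhesion protein that links neighbouring cells and is released in parts by membrane proteases. It lies on the plus strand at chr2:47345158-47387601, and 0 of its exon stretches recurred in another gene. EPCAM had 21769, 19861 and 18659 counts in control and 19400, 20348 and 18014 in 25(OH)D. These were 523, 525 and 507 CPM in control and 552, 529 and 553 CPM in 25(OH)D, a mean of 518 ± 9.98 (SD, n = 3) against 545 ± 13.4 (SD, n = 3). Every 25(OH)D library was above every control library on this scale, although by little. In RPKM the control libraries had 211, 212 and 203 and the 25(OH)D libraries 215, 208 and 215, and the groups overlapped. The log2 fold change was 0.07 with an SE of 0.0351 and a 95% interval from -0.0037 to 0.147 (edgeR, adjusted p = 0.137). Its RPKM in control was above that of 99.5% of the 33451 genes in the table.

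The RPKM of EPCAM was divided by that of CD24 within each library, since this ratio does not depend on library scaling. It rests on the deposited gene lengths and is not a number of transcripts per transcript. The ratio of RPKM values was 52.2, 58.7 and 49.5 in the control libraries and 22.7, 22.9 and 25.7 in those given 25(OH)D. All control ratios were far above all 25(OH)D ratios. On the log2 scale the mean was 5.74 ± 0.125 (SD, n = 3) in control and 4.57 ± 0.0985 (SD, n = 3) in 25(OH)D. The difference was -1.17, and the exact permutation test gave 0.1, the smallest p that 3 against 3 allows. It stayed between -1.23 and -1.10 when any single library was left out. These are levels of mRNA over all cells of a culture, and the share of cells that carry EpCAM without CD24 was not measured by them.

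**Figure D2:**
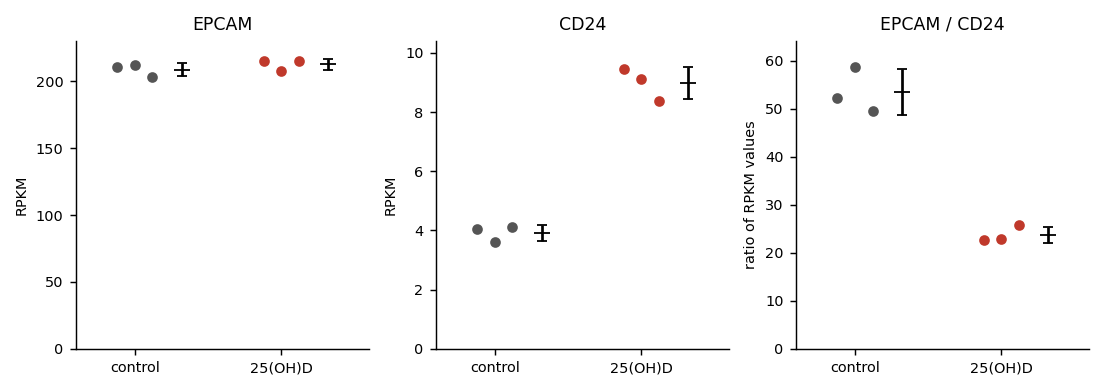
EPCAM and CD24 levels in RPKM and the ratio of both in each library, on linear axes from 0. Points are libraries, control in grey and 25(OH)D in red, and bars are the mean with 1 SD of 3 libraries. EPCAM overlaps between the groups, CD24 does not, and the ratio lies between 49.5 and 58.7 in control and between 22.7 and 25.7 in 25(OH)D.

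CD44, the receptor for hyaluronan and the antigen that defines the CD44+/CD24- phenotype, was almost absent from these libraries. The gene lies at chr11:35138870-35232402 on the plus strand. It had 2 counts in each control library and 4, 8 and 4 counts in the 25(OH)D libraries. The control counts were below the floor of 3 and the 25(OH)D counts just above it. Summed over the group, 6 counts stood against 16, a ratio per library size of 2.92 with a 95% counting interval from 1.09 to 9.11. With counts halved to stand for read pairs, the interval ran from 0.701 to 17.1. In a fit without the low-count filter its log2 fold change was 1.47 (edgeR, adjusted p = 0.518).

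PROM1 encodes a membrane protein of cell protrusions and THY1 a small lipid-anchored antigen of fibroblasts, neurons and T cells. PROM1, at chr4:15963076-16084378 on the minus strand, had 6, 0 and 2 counts in control and 2, 7 and 0 in 25(OH)D, with a library at 0 in each group. THY1, at chr11:119417378-119424985 on the minus strand, had 2, 0 and 0 counts in control and 0, 2 and 0 in 25(OH)D. No fold is given for THY1, since every library was under the floor. At this depth no difference was detectable for either gene, with an exact permutation p of 0.8 for PROM1 and 1.0 for THY1 in 3 against 3 libraries. Of the THY1 exon stretches, 6.82% recurred in another gene, and PROM1 shared 166 exon bases on the same strand with FGFBP2, which had at most 1 count in any library.

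ALDH1A3, which oxidises retinal and is often the ALDH1A enzyme behind the ALDH activity of breast cancer cells, was low and higher in 25(OH)D without reaching the threshold. It lies at chr15:100877714-100916626 on the plus strand. It had 14, 14 and 2 counts in control and 18, 26 and 26 in 25(OH)D, which were 0.336, 0.370 and 0.0543 CPM against 0.512, 0.676 and 0.798 CPM. The groups did not overlap, and the third control library, at 2 counts, was under the floor. Mean CPM was 0.254 ± 0.173 (SD, n = 3) in control and 0.662 ± 0.143 (SD, n = 3) in 25(OH)D. The log2 fold change was 1.36 with an SE of 0.520 (edgeR, unadjusted p = 0.021, adjusted p = 0.0596). ALDH1A3 passed the low-count filter only through the 25(OH)D group, so this test is no support for a change. Without control replicate 3 it was 0.91 (edgeR, adjusted p = 0.173). Without the low-count filter the edgeR adjusted p was 0.0316, and with counts halved the gene did not pass the filter. Its exons share 1585 bases with RP11-66B24.4 on the opposite strand, which had at most 11 counts, and 21.0% of its stretches recurred in another gene, mostly AC015712.2. The search for stretches covered both strands, so both figures may describe the same overlap, which was not tested. The strand setting of the counting is not given in the sources used here, so reads from overlapping genes cannot be assigned with certainty.

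ALDH2, the mitochondrial enzyme that clears the acetaldehyde made from alcohol, lies at chr12:111766887-111817529 on the plus strand. It had 28, 18 and 18 counts in control and 36, 29 and 40 in 25(OH)D. These were 0.672, 0.476 and 0.489 CPM against 1.02, 0.754 and 1.23 CPM, and the lowest 25(OH)D library was above the highest control library. Mean CPM was 0.546 ± 0.110 (SD, n = 3) and 1.0 ± 0.237 (SD, n = 3). The log2 fold change was 0.86 with an SE of 0.346 (edgeR, unadjusted p = 0.0265, adjusted p = 0.0715), and with counts halved the edgeR adjusted p was 0.0468. ALDH2 shares 680 exon bases on the same strand with RP11-162P23.2, which had at most 20 counts and a log2 fold change of 0.59 (edgeR, adjusted p = 0.416).

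ALDH1A1, the enzyme for which ALDH staining is often named, was at the floor. It lies at chr9:72900662-73080442 on the minus strand and had 4, 0 and 2 counts in control and 0, 2 and 4 in 25(OH)D. Its 6 counts in control stood against 6 in 25(OH)D, a ratio per library size of 1.10 with a 95% counting interval from 0.293 to 4.10, and the exact permutation p was 1.0 in 3 against 3 libraries. No difference was detectable at this depth.

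The level of the 19 ALDH genes was also summed in each library. This is a sum of mRNA over the whole family and does not stand for the activity read by an ALDH assay. No such activity was measured in these libraries. The summed RPKM was 168, 160 and 166 in control and 186, 186 and 180 in 25(OH)D. All 25(OH)D libraries were above all control libraries, with means of 165 ± 4.47 (SD, n = 3) and 184 ± 3.34 (SD, n = 3) and an exact permutation p of 0.1. ALDH1A1, ALDH1A3 and ALDH2 together made up between 0.0479% and 0.0975% of this sum in control and between 0.103% and 0.167% in 25(OH)D. The most abundant was ALDH3B2, a lipid aldehyde dehydrogenase, with a mean RPKM of 85.2 in control and 88.3 in 25(OH)D (edgeR, adjusted p = 0.0822). Of the stretches of 100 bases in ALDH3B1 and ALDH3B2 transcripts, 0 recurred in another gene.

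Of the other 16 ALDH genes, all 16 were listed and 13 were tested. Among these 13, 6 were called higher and 3 lower, beside 17.3% and 16.5% of all genes tested. The median log2 fold change was 0.22 against -0.01 over all genes tested. ALDH3A2, which oxidises fatty aldehydes, rose from 32.9, 34.1 and 33.4 CPM in control to 54.1, 55.6 and 54.1 CPM in 25(OH)D (log2 fold change 0.71, edgeR adjusted p = 1.27e-07). ALDH7A1, an enzyme of lysine breakdown, rose from 280, 279 and 282 CPM to 379, 390 and 379 CPM (log2 fold change 0.45, edgeR adjusted p = 1.76e-07). Both had groups that were tight and far apart. ALDH3A1, a stress-induced enzyme of the cornea and many tumours, fell from 102, 70 and 72 counts to 14, 14 and 26 counts (log2 fold change -2.02, SE 0.315, edgeR adjusted p = 1.71e-04). ALDH1B1, a mitochondrial relative of ALDH2, fell from 252, 189 and 190 counts to 134, 96 and 86 counts (log2 fold change -0.86, edgeR adjusted p = 0.0015). The genes that fell, ALDH1B1, ALDH3A1 and ALDH3B1, had mean RPKM of 1.74, 0.540 and 0.279 in control, and among those that rose ALDH8A1 was as low, at 0.407. ALDH3B1, ALDH3B2 and ALDH8A1 were named after their values were seen.

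**Figure D3:**
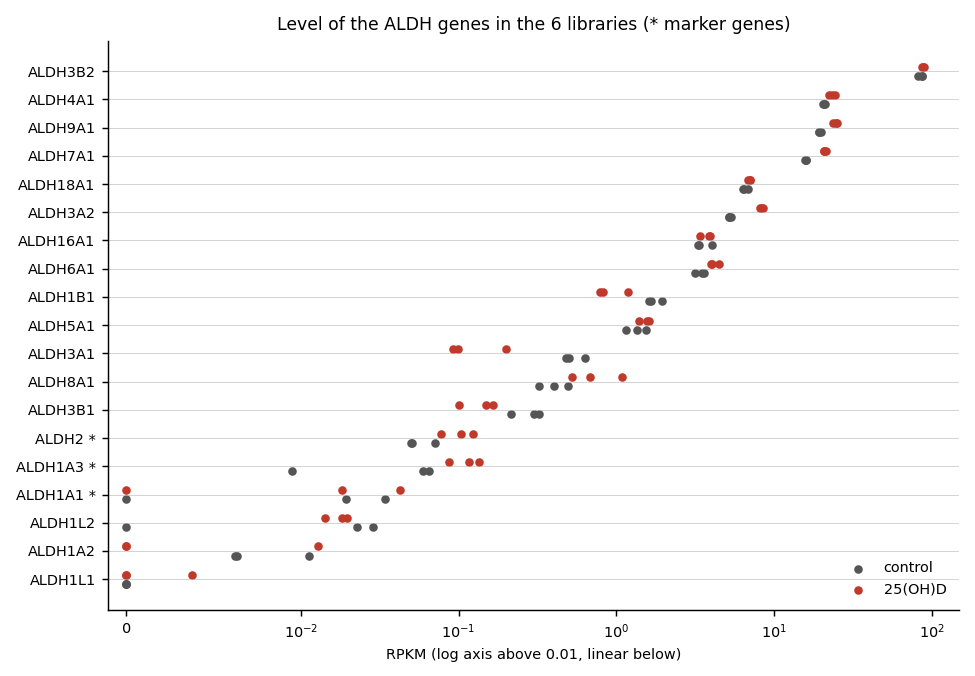
RPKM of the 19 ALDH genes in each library, ordered by level, on an axis that is logarithmic above 0.01 and linear below. Control libraries are grey and 25(OH)D libraries red, and marker genes carry an asterisk. ALDH3B2 lies at the top with means of 85.2 and 88.3 RPKM, and the 3 marker genes lie near the bottom, with all libraries at or below 0.135 RPKM.

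ALDH1A enzymes act in retinoid metabolism, so the genes around them were read as well. Of 36 genes of retinoid metabolism and retinoid receptors, 31 were listed and 20 tested, with a median log2 fold change of 0.08. Among these 20, 5 were called higher and 4 lower, beside 17.3% and 16.5% of all genes tested. The count of 4 lower became 2 without control replicate 1. DHRS3, which turns retinal back into retinol, rose from 96, 73 and 72 counts to 514, 577 and 497 counts (log2 fold change 2.85, edgeR adjusted p = 1.36e-10). RARRES1, named as a gene that responds to retinoic acid receptors, rose from 62, 55 and 64 counts to 833, 1093 and 1151 counts (log2 fold change 4.22, edgeR adjusted p = 4.79e-11). CRABP2, the carrier of retinoic acid to its receptors, was very abundant and fell from 875, 869 and 873 CPM to 596, 614 and 637 CPM (log2 fold change -0.50, edgeR adjusted p = 4.65e-08). FABP5, a fatty acid binding protein that also carries retinoic acid, fell from 63, 42 and 40 counts to 0, 2 and 6 counts (log2 fold change -3.97, edgeR adjusted p = 1.09e-04). Of the 1972 stretches of 100 bases in FABP5 transcripts, 311 (15.8%) recurred in another gene, mostly the pseudogene FABP5P7, so some of its reads cannot be assigned with certainty. FABP5, 1 of the 4 genes called lower, passed the low-count filter only through the control group. CYP26A1 and CYP26B1, 2 of the 5 genes called higher, passed it only through the 25(OH)D group. The calls of these genes are no support for a change.

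SOX9, a factor of luminal progenitors, was the more abundant of both transcription factors. It lies at chr17:72121020-72126420 on the plus strand. SOX9 had 143, 176 and 100 counts in control and 167, 136 and 151 in 25(OH)D, which were 3.43, 4.65 and 2.72 CPM against 4.75, 3.54 and 4.63 CPM. The groups overlapped widely. Mean CPM was 3.6 ± 0.979 (SD, n = 3) and 4.31 ± 0.669 (SD, n = 3), and the log2 fold change was 0.25 with a 95% interval from -0.167 to 0.677 (edgeR, adjusted p = 0.355). Leaving out a library moved this value to between 0.10 and 0.49, the highest without control replicate 2.

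SOX2, a core factor of pluripotent cells, was the only marker that was lower in all 25(OH)D libraries. It is a gene of 1 exon at chr3:181711924-181714436 on the plus strand. It had 10, 10 and 8 counts in control and 4, 4 and 0 in 25(OH)D, and it did not pass the low-count filter. Summed over the groups, 28 counts stood against 8, a ratio per library size of 0.313 with a 95% counting interval from 0.123 to 0.705. With counts halved the interval was 0.075 to 0.996. In a fit without the filter its log2 fold change was -1.65 (edgeR, adjusted p = 0.265). The difference was therefore outside the counting error of the summed counts and was not called in the fit without the filter. Whether few counts or the spread between libraries kept SOX2 from being called was not tested.

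**Figure D4:**
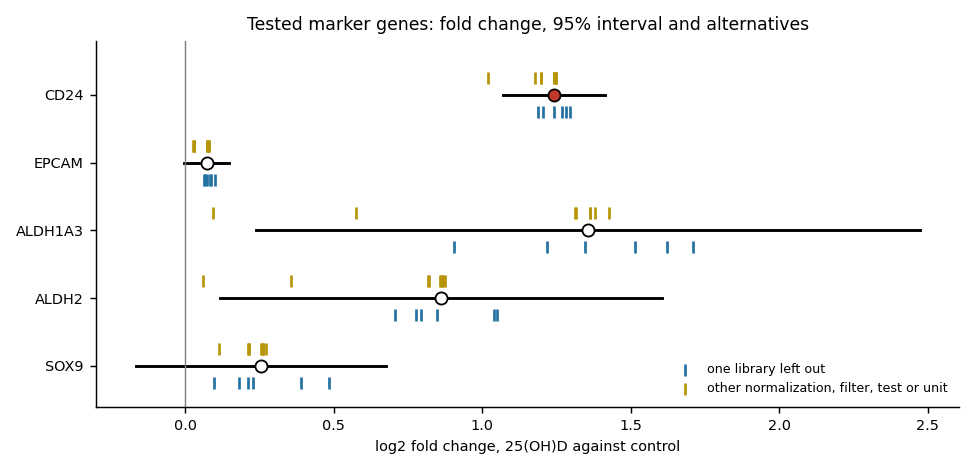
Log2 fold change of 25(OH)D against control for the 5 marker genes that were tested, with the 95% interval of the edgeR fit as a line and the called gene in red. Blue ticks leave out a library each, and yellow ticks use another normalization, filter, test or unit. CD24 keeps a narrow interval around 1.24, EPCAM sits near 0 at 0.07, and ALDH1A3 and ALDH2 have wide intervals above 0, with the smallest values from RPKM with 1 added before the logarithm.

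Of 18 other SOX genes, 10 were listed and 8 tested, with a median log2 fold change of -0.28. Among these 8, 0 were called higher and 2 lower, beside 17.3% and 16.5% of all genes tested. At an unadjusted p under 0.05 edgeR also called 0 of the SOX genes higher, a limit at which the share of all genes was not computed. DESeq2 at an adjusted p under 0.05 called 0 higher and 2 lower, beside 3138 and 2841 of all genes tested. SOX10, a factor of neural crest and of basal-like mammary cells, fell from 17, 14 and 13 counts to 2, 5 and 2 counts (log2 fold change -2.12, SE 0.558, edgeR adjusted p = 0.00884). SOX10, 1 of the 2 genes called lower, passed the low-count filter only through the control group, so its call is no support for a fall. SOX6 fell from 446, 443 and 442 counts to 297, 378 and 299 counts (log2 fold change -0.32, edgeR adjusted p = 0.019). The count of lower SOX genes was 1 without control replicate 2 or 3, 0 without 25(OH)D replicate 1 and 4 without 25(OH)D replicate 3.

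In each group the markers were ordered by level per gene length. In control the order of mean RPKM was EPCAM at 209, CD24 at 3.92, SOX9 at 0.929, SOX2 at 0.0972, ALDH2 at 0.0570, ALDH1A3 at 0.0447, ALDH1A1 at 0.0178, PROM1 at 0.00903, CD44 at 0.00522 and THY1 at 0.00275. Neighbours from EPCAM down to ALDH2 did not overlap between their libraries, and from ALDH2 on they did. In 25(OH)D the order was EPCAM at 213, CD24 at 8.98, SOX9 at 1.08, ALDH1A3 at 0.113, ALDH2 at 0.101, SOX2 at 0.0285, ALDH1A1 at 0.0201, CD44 at 0.0145, PROM1 at 0.0106 and THY1 at 0.0029. Here ALDH1A3 and ALDH2 overlapped, ALDH2 and SOX2 did not, and the genes from SOX2 down overlapped with their neighbours. SOX2 thus stood above ALDH1A3 and ALDH2 in control and below both in 25(OH)D.

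Among 30 other surface markers of stem and progenitor cells, all 30 were listed and 18 tested, with a median log2 fold change of 0.19. Of these 18, 9 were called higher and 4 lower, beside 17.3% and 16.5% of all genes tested. ALCAM, an adhesion molecule also known as CD166, rose from 265, 266 and 268 CPM to 470, 467 and 473 CPM (log2 fold change 0.82, edgeR adjusted p = 1.78e-10). ITGA2, a collagen-binding integrin, rose from 23.8, 22.3 and 19.6 CPM to 42.0, 39.4 and 44.0 CPM (log2 fold change 0.93, edgeR adjusted p = 3.55e-07). ITGA6, the laminin-binding integrin known as CD49f, fell from 99.6, 90.6 and 79.6 CPM to 59.6, 60.8 and 67.2 CPM (log2 fold change -0.53, edgeR adjusted p = 6.46e-05). CD55, a complement inhibitor, fell from 16.7, 16.6 and 16.6 CPM to 12.9, 12.5 and 12.3 CPM (log2 fold change -0.41, edgeR adjusted p = 7.9e-04). In all of these the groups were apart.

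Of 27 genes whose products bind, cleave or splice CD44, EPCAM or CD24, 26 were listed and 19 tested, with a median log2 fold change of 0.08. Among these 19, 5 were called higher and 4 lower, beside 17.3% and 16.5% of all genes tested. With library sizes alone, with upper-quartile factors and with both limma fits on RPKM the split of this list was 4 higher and 6 lower. CLDN7, a tight junction claudin that binds EPCAM, rose from 15.8, 14.6 and 16.6 CPM to 28.9, 28.0 and 31.0 CPM (log2 fold change 0.90, edgeR adjusted p = 3.47e-07). PSEN2, a catalytic subunit of the protease that cuts EPCAM and CD44 within the membrane, rose from 18.9, 18.2 and 18.6 CPM to 24.7, 27.0 and 25.3 CPM (log2 fold change 0.47, edgeR adjusted p = 9.84e-05). VCAN, a hyaluronan-binding matrix proteoglycan, fell from 11.0, 9.70 and 10.2 CPM to 4.27, 4.32 and 4.17 CPM (log2 fold change -1.27, edgeR adjusted p = 5.09e-07). RDX, which ties the tail of CD44 to actin, fell from 32.1, 30.1 and 31.1 CPM to 20.5, 21.9 and 22.1 CPM (log2 fold change -0.53, edgeR adjusted p = 1.86e-05).

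Of 22 transcription factors of pluripotent and stem cells, 18 were listed and 10 tested, with a median log2 fold change of -0.04. Among these 10, 2 were called higher and 4 lower, beside 17.3% and 16.5% of all genes tested. ZEB1, a repressor of epithelial genes, rose from 65, 64 and 66 counts to 117, 151 and 124 counts (log2 fold change 1.13, edgeR adjusted p = 1.6e-04). STAT3, which relays cytokine signals, rose from 33.5, 30.7 and 30.6 CPM to 39.1, 41.3 and 40.7 CPM (log2 fold change 0.35, edgeR adjusted p = 4.28e-04). The genes with the smallest p among those that fell were MYC, with a log2 fold change of -1.35 (edgeR, adjusted p = 2.3e-08), and BMI1, a Polycomb subunit, with -0.48 (edgeR, adjusted p = 1.37e-06).

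**Figure D5:**
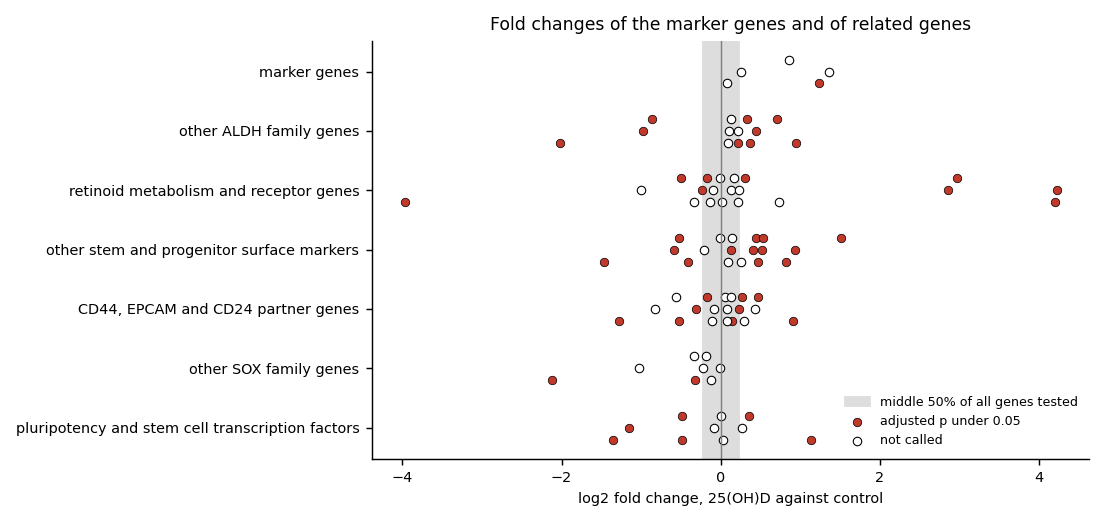
Log2 fold changes between 25(OH)D and control for the tested genes among the 10 markers and in 6 lists of related genes, with called genes in red and the middle 50% of all genes tested as a grey band. The vertical offset within a row only separates points. The retinoid list reaches from -3.97 for FABP5 to 4.22 for RARRES1, and the called marker CD24 lies at 1.24.

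The labelled cell type was checked against markers of the cells a breast culture could hold. The 16 luminal and apocrine markers summed to between 3750 and 3890 RPKM in control and between 2870 and 2980 RPKM in 25(OH)D. XBP1, the most abundant, had a mean of 2660 RPKM in control and 1760 RPKM in 25(OH)D, close in size to the fall of the sum. Of the 16, 9 were called higher and 4 lower. The 14 basal markers summed to between 2.06 and 2.31 RPKM in control and between 2.95 and 3.17 in 25(OH)D. KRT16 alone had a mean of 0.171 RPKM in control and 1.23 RPKM in 25(OH)D, close in size to the rise of the sum. Among the 7 of them that were tested, 1 was called higher and 1 lower. The gene called lower, TP63, passed the low-count filter only through the control group, so its call is no support for a fall. KRT16 and TP63 were named after their values were seen. Shares over all genes tested were 17.3% higher and 16.5% lower. For fibroblast markers, 10 of 13 were listed, with COL3A1, POSTN and TCF21 not listed, and their sums were 5.81 to 6.43 RPKM in control and 4.12 to 4.59 in 25(OH)D. Of 14 leukocyte and endothelial markers, 13 were listed, and their sums of 2.30 to 2.90 RPKM in control and 6.14 to 8.91 in 25(OH)D were mostly CD68, a lysosomal protein that many cells carry. PTPRC, the defining leukocyte antigen, had at most 6 counts in a library, and CDH5 was not listed. The part of these levels in the marker results was not tested.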

How the data were processed

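The processed data were mRNA sequencing of 3 control and 3 25(OH)D libraries. Per the submitters' processing notes, the authors used Trimmomatic 0.36, featureCounts of Subread 1.5.1, edgeR 3.12.1 and the build GRCh38. The aligner and the annotation release are not given in the sources used here. The authors deposited whole-number counts per gene without normalization, and RPKM values, which equalled count over gene length and library total on every value (largest relative difference 5.14e-15). Totals were between 33268860 and 40928176 counts, which limits precision for genes with few counts.

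The counts of all 6 libraries entered 1 fit in edgeR 4.0.16 (R 4.3.3), with TMM factors, the filter on low counts at its defaults (minimum count 10) and no covariates, and 25(OH)D was compared with control by the quasi-likelihood test. The Benjamini-Hochberg adjustment covered 18183 genes. The biological coefficient of variation was 0.0788. The fit was tested on simulated data with known changes. Samples were grouped by their labels. Single values were compared by two-sided exact permutation tests in scipy 1.17.1. A list is described by its counts and its median beside all genes tested. Exon positions were those deposited with the counts, and their merged lengths equalled the gene lengths deposited with them for all 10 markers. Transcripts and the CD24 coding sequence were those of GENCODE 29, which was not compared with the annotation used for counting. Upstream windows came from RefSeq, which held 6 of the 10 markers. Shared stretches were windows of 100 bases of a marker, or of FABP5, ALDH3B1 and ALDH3B2, found in transcripts of another gene.

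The markers and lists were chosen with earlier results of these data known. The rule for named genes took the 10 markers, in each list the 2 genes with the smallest p among those called higher and the 2 among those called lower, and genes that overlap or copy a marker. The alternatives were library sizes alone, upper-quartile and RLE factors, no filter, DESeq2 1.42.0, limma 3.58.1 on log2(RPKM + 1) and log2(RPKM + 0.1), the replicate number as a block, the limits of the study, and leaving out each library. Halved counts and leaving out markers with shared exon bases were added after seeing the data. Replicates of a group were not duplicates (chi-square per gene between 3.97 and 12.1). A further gene of the lists is not reported here.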

Additional observations from a re-analysis of the deposited data

How the results depend on the processing

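No fold change or difference of the markers changed its sign under any alternative that was run. Of the values recomputed, many of them counts of genes called, 325 were taken as unchanged, 24 moved and 3 became stronger. A fold change was unchanged if it kept its sign and its side of the threshold. For the ratio and the ALDH sum the same sign was enough, and for a count of genes a similar size. The spread between replicates did not enter these labels. CD24 was called under every alternative, with log2 fold changes from 1.02 to 1.30. The number of markers called higher was 1 with every library left out in turn, and 2 without the low-count filter, with counts halved (an alternative chosen after seeing the data) and with the limits of the study. Without the filter, ALDH1A3 was called at a log2 fold change of 1.36 (edgeR, adjusted p = 0.0316), and with the limits of the study at 1.36. The edgeR fit without the filter gave CD24 an adjusted p of 5.06e-43, against 2.35e-08 in the main fit. Its p-values are therefore not comparable with those of the main fit. ALDH1A3 could not be fitted with counts halved, since it did not pass the filter. ALDH2 was called with counts halved at 0.86 (edgeR, adjusted p = 0.0468). Over their alternatives the adjusted p lay between 0.0316 and 0.173 for ALDH1A3, and between 0.0468 and 0.221 for ALDH2. The causes were not tested, beyond the number of genes and the size of the counts that these settings change.

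Under the limits of the study, which demand a larger change, all genes called numbered 731 higher and 478 lower, and the lists gave 0 higher and 1 lower for the other ALDH genes, 4 higher and 1 lower for the retinoid genes, 1 higher and 1 lower for the surface markers, 0 higher and 1 lower for the partner genes, 1 lower for the other SOX genes, and 1 higher and 2 lower for the stem cell factors. Of the genes of these lists called under these limits, CYP26A1, CYP26B1, FABP5 and SOX10 had passed the low-count filter only through the group where they were higher. Lower SOX genes numbered 4 without the filter and 1 each with limma on log2(RPKM + 1), limma on log2(RPKM + 0.1) and counts halved, and they lay between 0 and 4 with a library left out. Lower retinoid genes lay between 2 and 4 with a library left out. The split of all genes called was 2705 higher and 3613 lower with upper-quartile factors, 2391 and 3167 with limma on log2(RPKM + 1), and 3206 and 2915 with RLE factors. Another scaling moved the median log2 fold change of all genes to at most -0.0554.

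Deviations from the group mean showed no sign of pairing by replicate number. Their correlations were -0.145, 0.02 and -0.092 for same-numbered libraries and between -0.054 and 0.141 for the others. With 3 libraries in each group these correlations cannot show whether cultures were paired, which the labels do not say. With the replicate number as a block, 5953 genes were called, 1 marker was called higher, and the log2 fold change of CD24 was 1.24 (edgeR, adjusted p = 4.71e-07). The depth limits CD44, PROM1, THY1, ALDH1A1 and SOX2, for which a few counts decide the value.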

Other observations

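The genes in this paragraph were chosen after their values were seen. CYP26A1 and CYP26B1 encode the enzymes that break down retinoic acid, the product of the ALDH1A enzymes. CYP26A1 had 2, 0 and 2 counts in control and 25, 23 and 25 in 25(OH)D, a ratio of summed counts per library size of 20 with a 95% counting interval from 7.48 to 75.3. CYP26B1 had 2, 2 and 8 counts against 29, 32 and 28, a ratio of 8.12 with an interval from 4.43 to 16.3. STRA6, a retinol transporter of the membrane, had 2, 0 and 0 counts against 16, 8 and 14, a ratio of 20.8 with an interval from 5.38 to 178, and did not pass the low-count filter. CYP26A1 and CYP26B1 passed it only through the 25(OH)D group, so no test is given for them. With counts halved to stand for read pairs, the intervals were 5.38 to 178 for CYP26A1, 3.49 to 23.6 for CYP26B1 and 3.31 to 865 for STRA6. In all 3 genes every 25(OH)D library was above every control library.

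PROM2 and PROCR were also chosen after their values were seen. PROM2, the paralog of PROM1, was abundant where PROM1 was at the floor, and it rose from 94.8, 98.0 and 107 CPM to 144, 148 and 141 CPM (log2 fold change 0.53, edgeR adjusted p = 9.78e-07). PROCR, a receptor that marks a mammary stem cell population in mouse, fell from 60, 60 and 56 counts to 16, 22 and 20 counts (log2 fold change -1.47, edgeR adjusted p = 0.00101).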
